A study of Sus scrofa with 18 samples.

Results

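The cluster of miR-143 and miR-145 is a pair of neighbouring microRNA (miRNA) hairpins, and it was followed here in the backfat (dorsal subcutaneous fat) of 18 pigs of the Italian Large White breed. Its members were all entries of the deposited count table named ssc-miR-143 or ssc-miR-145, with or without an arm suffix. The rule found 4 of the 240 mature miRNAs in the table, ssc-miR-143-3p, ssc-miR-143-5p, ssc-miR-145-5p and ssc-miR-145-3p, from 2 of 210 hairpins. A sequence form is 1 read sequence under 1 mature miRNA, counted once. The members held 735 of 17623 such forms, with 515 under miR-143-3p, 17 under miR-143-5p, 112 under miR-145-5p and 91 under miR-145-3p. The number of member sequences also listed under another miRNA was 0. In the RefSeq annotation of Sscrofa11.1 the genes MIR143 and MIR145 stood next to each other with no other annotated gene between them.

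The 9 pigs with high backfat deposition were 5 castrated males and 4 females, 235 to 250 days old. The 9 pigs with low backfat deposition were 4 castrated males and 5 females, 233 to 249 days old. All 18 shared breed, housing, diet and a weight of 150 to 160 kg, and each gave 1 small RNA library from bulk tissue, so that fewer cells of a type and less RNA per cell cannot be told apart. The labels name no treatment, and the series title names the divergence in backfat as the contrast.

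Library totals over distinct sequences ranged from 9601510 to 34588252 counts. The library codes in the labels formed 4 runs of consecutive codes, of which the run AC485 to AC488 held 1 high and 3 low libraries. The other runs held 2 and 2, 2 and 2, and 4 and 2. The labels do not say what a run of codes stands for. The pair of libraries closest in its counts, of 153 pairs, still had a chi-square of 733 per degree of freedom over miRNAs. High replicate 6 stood apart in 3 shares of the cluster, whose class differences are given with and without it below. Levels are counts per 1000000 (CPM) after trimmed-mean (TMM) scaling unless a share is named.

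In mammals the miR-143 and miR-145 hairpins are made from 1 shared transcript, and each hairpin is cut into a 5p and a 3p arm, of which one is usually kept by an Argonaute protein and the other degraded. Bases 2 to 8 of the kept strand, the seed, pair with target messenger RNAs. The cluster is known for its abundance in smooth muscle cells and pericytes, where in mice and humans miR-145-5p acts on the transcription factors KLF4 and KLF5 and favours the contractile state. In human preadipocytes miR-143-3p promotes differentiation into fat cells, and in mice its excess in the liver impairs insulin signalling. In human cells miR-145-5p represses the insulin receptor substrate IRS1.

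The annotated mature sequence and the most counted form of each member are shown because they differed for 3 of the 4 members. The sequences are from the deposited table, in DNA letters, 5′ to 3′, and capitals mark the seed.
miR-143-3p, annotated and most counted: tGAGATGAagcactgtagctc
miR-143-5p, annotated: gGTGCAGTgctgcatctctgg
miR-143-5p, most counted: gGTGCAGTgctgcatctctgga
miR-145-5p, annotated: gTCCAGTTttcccaggaatccctt
miR-145-5p, most counted: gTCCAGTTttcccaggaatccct
miR-145-3p, annotated: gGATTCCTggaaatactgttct
miR-145-3p, most counted: aTTCCTGGaaatactgttctt
The most counted form kept the annotated seed in miR-143-5p and miR-145-5p. In miR-145-3p it began at the third annotated base, which gave the seed TTCCTGG in place of GATTCCT. Among 225 miRNAs with an annotated form in the table, the number of others sharing any of these seeds was 0.

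The 3′ ends of miR-143-3p are shown because they held most of the variation of the most abundant member. Capitals mark bases that differ from the hairpin.
annotated: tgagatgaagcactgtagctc
1 base shorter: tgagatgaagcactgtagct
with an added base: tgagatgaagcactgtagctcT
1 base longer: tgagatgaagcactgtagctcg
longer, with an added base: tgagatgaagcactgtagctcgT
with a pair of added bases: tgagatgaagcactgtagctcTT
with another added base: tgagatgaagcactgtagctcA
Over the 18 libraries these forms made up 27.3%, 25.6%, 24.5%, 7.24%, 2.51%, 2.41% and 1.62% of the 75704121 counts of miR-143-3p, in the order shown. Of the other forms with at least 1%, the one 2 bases shorter held 1.42% and the one 1 base shorter with an added T 1.18%.

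The 2 hairpins were used very differently. miR-143-3p was the second most abundant miRNA of the tissue, with 19.2% ± 1.98 of a library's counts (SD, n = 18), while its partner arm miR-143-5p held 0.00258% ± 0.000912 and ranked 157 of 240. miR-145-5p held 0.114% ± 0.0400 (rank 49), and miR-145-3p held 0.0430% ± 0.0132 (rank 72). miR-143-3p ran from 116592 CPM to 238164 CPM over all libraries, miR-145-5p from 721 to 1680 CPM, miR-145-3p from 234 to 771 CPM and miR-143-5p from 13.1 to 34.95 CPM. The order of the 4 members was the same in every library, although the ranges of miR-145-5p and miR-145-3p over libraries overlapped. Small RNA libraries do not capture all sequences equally well, so levels of different miRNAs are not molecule numbers.

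Within the miR-143 hairpin the 3p arm took nearly all counts: the 5p share was 0.0135% ± 0.00511 (SD, n = 18), from 0.00559% to 0.0296%. Within the miR-145 hairpin the 5p arm was the larger, and the 3p share was 28.1% ± 6.27, from 12.2% to 42.1%. The hairpins thus differed in which arm prevailed, in 18 of 18 libraries. Of all cluster counts, miR-145 held 0.814% ± 0.262.

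Each member also had its own spectrum of forms. miR-143-3p was spread over its annotated form, forms shorter at the 3′ end and forms whose last base or bases did not match the hairpin, miR-143-5p mostly carried such unmatched ends, miR-145-5p was mostly 1 base shorter than annotated, and miR-145-3p began 2 bases late. Of 735 forms, 735 had the same number of changed bases in this classification as in the deposited categories. This match is partly built in and is not an independent check. The hairpin was rebuilt from forms deposited without a mismatch, and the deposited number decided at hairpin bases that those forms did not cover. A base that does not match the hairpin can be an added base, a sequencing error or an edit, which these counts cannot tell apart.

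**Figure D1:**
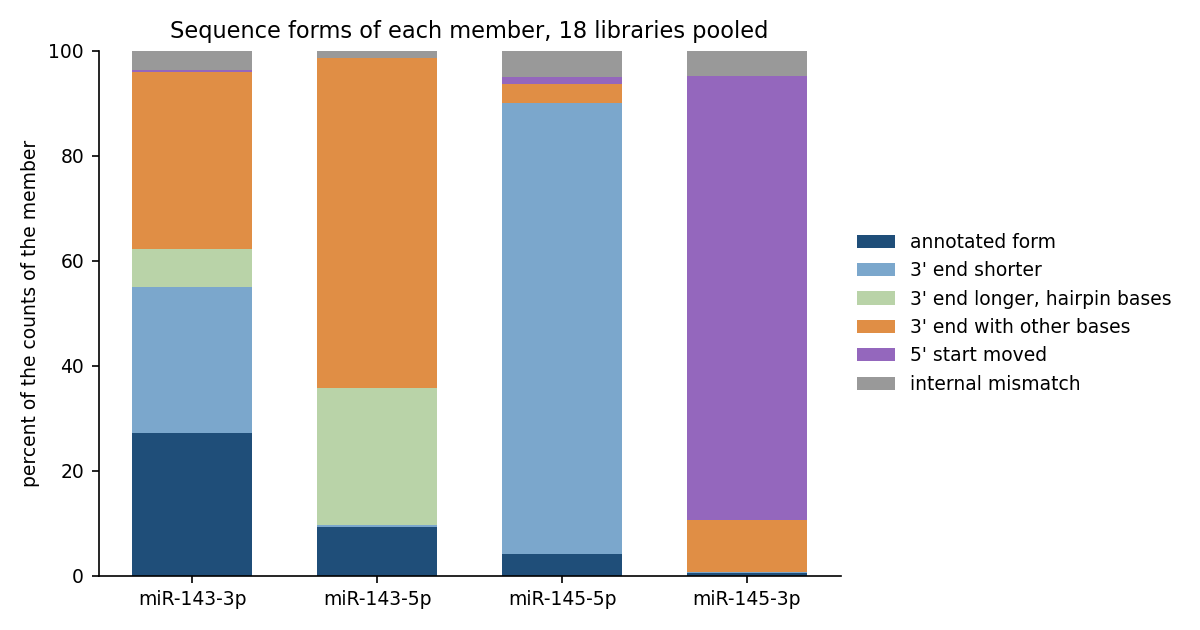
Pooled counts of each member over 18 libraries, split by sequence form, as percent of the member's counts on the vertical axis. The annotated form makes up 27.3% of miR-143-3p, 9.31% of miR-143-5p, 4.06% of miR-145-5p and 0.429% of miR-145-3p, and forms that combine a moved 5′ start with a changed base are drawn under the class of the changed base.

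miR-143-3p had its annotated form in 26.7% ± 4.47 of its counts and ends not matching the hairpin in 34.0% ± 2.73 (SD, n = 18). Of the pooled counts with such ends, 84.1% ended in a single added T, 7.62% in TT and 6.28% in A. Ends in T or TT made up 30.9% of all its counts, rank 11 of the 164 miRNAs that had an annotated form and at least 100 counts in every library, whose median was 3.08%. Its unmatched ends as a whole, 33.7% of pooled counts, ranked 19 of 164, where the median was 8.24%. Both arms of the miR-143 hairpin were thus above the median miRNA, and both arms of miR-145 were nearer to it or below it.

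miR-143-5p, the rare arm, had ends not matching the hairpin in 62.8% of pooled counts, rank 4 of 164. The added base was A in 61.6% of those counts and T in 32.5%, so the prevailing added base differed from that of its partner arm. Its most counted form, the annotated sequence plus A, held 31.0% of 10527 counts, and its annotated form held 9.31%. Forms 1 and 2 bases longer that follow the hairpin held 26.1% together. The form 2 bases longer with an added T held 14.8%, and the other 3 forms with at least 1%, all with unmatched ends, held 7.33%, 5.64% and 3.24%.

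miR-145-5p, the main arm of its hairpin, was the most uniform member. The form 1 base shorter than annotated held 75.8% of 450752 counts, the form 2 bases shorter 8.75% and the annotated form 4.06%. A form with the change C3T held 1.77%, counted from 1 at the annotated 5′ end, and the other 3 forms with at least 1% held 1.44%, 1.43% and 1.12%. Ends not matching the hairpin made up 3.67%, rank 125 of 164, and 98.6% of counts began at the annotated base.

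miR-145-3p departed furthest from its annotation. Of 176825 counts, 94.4% began at position 3, 4.75% at position 2 and 0.728% at the annotated base, with positions counted from 1 at the 5′ end of the annotated sequence. The 99.3% of counts with a moved start was the highest share among the 164 miRNAs, where the median was 0.328%. Its annotated form, with 0.429% of counts, had the lowest share of the 164. The most counted form, 1 base longer than annotated at the 3′ end, held 64.1%. Forms with the same start that ended at the annotated base and 1 base before it held 9.65% and 5.48%, and the other 6 forms with at least 1% held from 1.10% to 3.13%. The late start was present in every library: the share of counts with a moved start was 99.3% ± 0.187 (SD, n = 18).

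**Figure D2:**
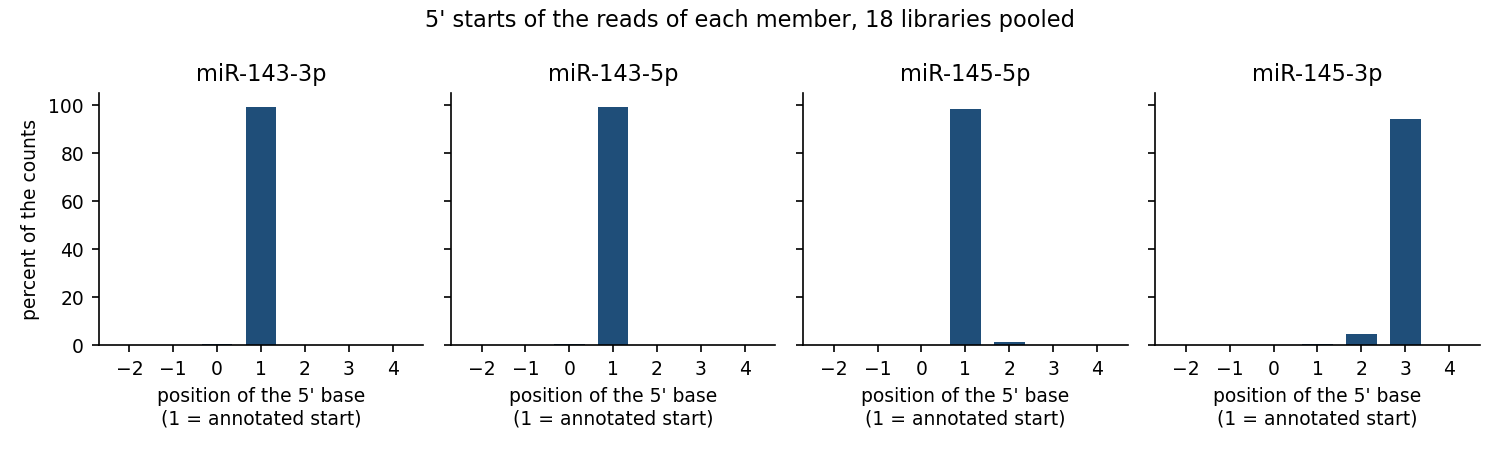
Percent of the pooled counts of each member (vertical axis) by the position of the first read base, where 1 is the annotated start. Starts at position 1 hold 99.5% of miR-143-3p, 99.3% of miR-143-5p and 98.6% of miR-145-5p, whereas 94.4% of miR-145-3p starts at position 3.

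The form shares were compared between members within libraries with paired sign-flip permutation tests (two-sided, 100000 resamples, 12 comparisons). The annotated form was higher in miR-143-3p (26.7% ± 4.47) than in miR-143-5p (9.49% ± 2.28) and in miR-145-5p (4.11% ± 0.437), in 18 of 18 libraries each. miR-145-3p was far above miR-145-5p in moved starts, 99.3% ± 0.187 against 1.42% ± 0.203. Forms counted as shorter at the 3′ end held 0.233% ± 0.153 of miR-145-3p and 85.5% ± 3.08 of miR-145-5p. That class took only forms with the annotated start, so the low share of miR-145-3p followed from its moved starts. Its outcome was thus largely fixed in advance and cannot compare the 3′ ends of these arms. The miR-145-3p form with a moved start that ended 1 base short held 5.48% of pooled counts. Unmatched 3′ ends were lower in miR-143-3p (34.0% ± 2.73) than in miR-143-5p (62.8% ± 4.28) and higher than in miR-145-5p (3.55% ± 0.528). Of the 12 comparisons 11 reached a permutation p of 1e-05, the smallest that the resamples can give. The exception was the moved start of miR-143-3p against miR-143-5p, 0.507% ± 0.0642 against 0.474% ± 0.851 (permutation p = 0.871). With mismatch forms left out, no form of miR-143-5p with a moved start remained. The difference of 0.510 ± 0.0548 points (SD of the paired difference, adjusted permutation p = 1e-05) is then the share of miR-143-3p alone. Its outcome was fixed in advance, so it cannot compare the 2 arms.

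High and low backfat were compared next, which is the question the study was built on. None of the 4 members passed the test, against 3.62% of the 221 miRNAs tested (8 called, 3 higher and 5 lower in high backfat, by edgeR's quasi-likelihood test at an adjusted p of 0.05 with sex as a covariate). DESeq2's Wald test called 22 miRNAs, none of them a member. The mean levels of the miR-143 arms lay close together in the classes, and both miR-145 arms had lower means in high backfat, by about 1 SD between animals or less.

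miR-143-3p had a lowest, median and highest level of 116592, 195179 and 237280 CPM in high backfat, against 159859, 198946 and 238164 CPM in low backfat. The classes overlapped in all 4 members (0.452% of the 221 miRNAs had classes that did not), and here the lowest value belonged to high replicate 6. Before TMM scaling this library was also the lowest, with 16.1% of its counts, but low replicate 9 was close at 16.5%. The means were 190666 ± 39544 CPM in high and 194986 ± 23574 CPM in low backfat (SD, n = 9 each), and the log2 fold change was -0.03 with an SE of 0.13 (edgeR adjusted p = 0.886). As a share of the library the order was the other way, 19.4% ± 2.47 in high and 19.1% ± 1.48 in low backfat.

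miR-143-5p had 13.1, 23.3 and 34.95 CPM as lowest, median and highest level in high backfat, against 15.8, 26.9 and 32.0 CPM in low backfat. Its values spread over the same range in both classes. The means were 25.1 ± 7.49 and 24.9 ± 6.08 CPM in high and low backfat, and the log2 fold change was 0.02 ± 0.17 (edgeR adjusted p = 0.938).

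miR-145-5p had 721, 856 and 1680 CPM as lowest, median and highest level in high backfat, against 820, 1226 and 1637 CPM in low backfat. Of the low libraries 8 of 9 were above the high median, yet the highest library of all was high replicate 6. The means were 1005 ± 320 CPM in high and 1212 ± 269 CPM in low backfat, with a log2 fold change of -0.27 ± 0.15 (edgeR adjusted p = 0.283). Leaving out each library in turn gave values from -0.36 to -0.16, with adjusted p from 0.158 to 0.535.

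miR-145-3p had 234, 367 and 537 CPM as lowest, median and highest level in high backfat, against 269, 458 and 771 CPM in low backfat. Of the low libraries 7 of 9 were above the high median, and the lowest library was again high replicate 6. That place depended on TMM scaling. As a share of the library high replicate 6 had 0.0323%, above high replicate 9 with 0.0223% and low replicate 9 with 0.0273%, among others. The means were 376 ± 100.2 CPM in high and 479 ± 148 CPM in low backfat, and the log2 fold change was -0.31 ± 0.18 (edgeR adjusted p = 0.283). For both miR-145 arms the difference of the class means of log2 CPM was below 0 in all 4 code runs, from -0.62 to -0.10 for miR-145-5p and from -0.68 to -0.22 for miR-145-3p.

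**Figure D3:**
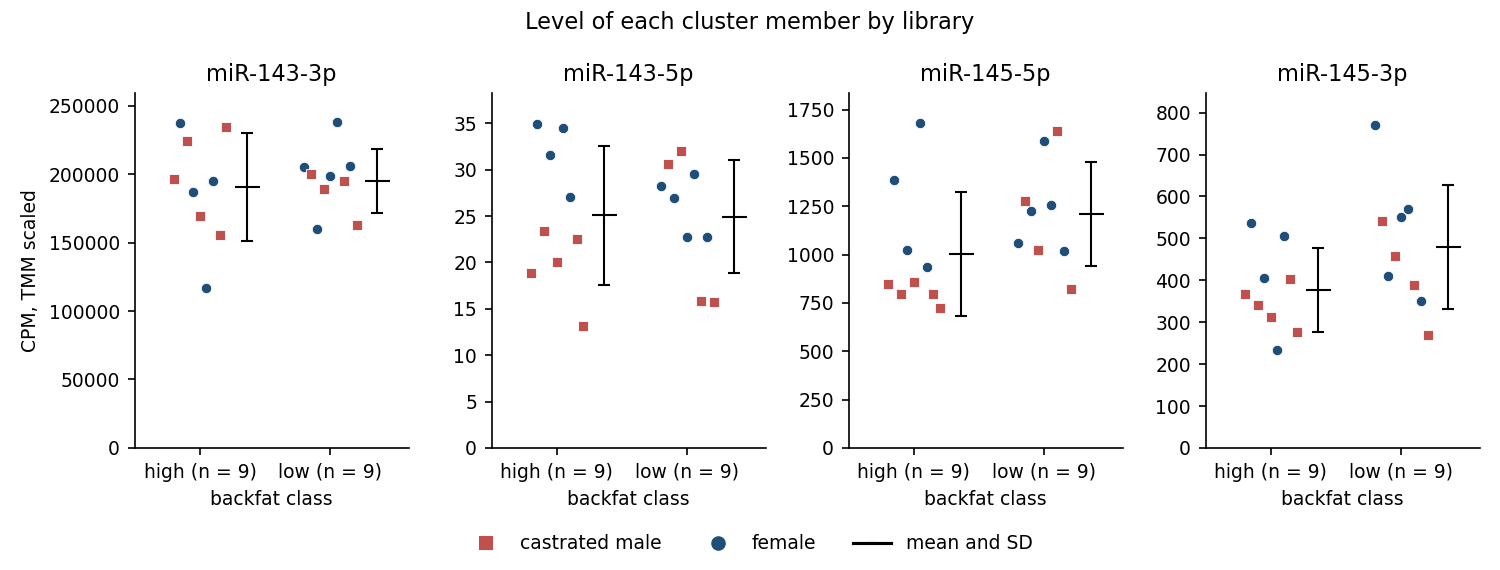
TMM-scaled CPM of the 4 members (vertical axes, from 0) in 9 high and 9 low libraries, squares for castrated males and circles for females, with the mean and SD beside each class. The classes overlap in every panel, and the lowest miR-143-3p value, 116592 CPM, and the highest miR-145-5p value, 1680 CPM, are the same high library.

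The arm balance was compared between the 9 high and the 9 low libraries by exact permutation of the class labels (two-sided, 3 tests). The 3p share of miR-145 was 28.0% ± 6.53 in high and 28.3% ± 6.40 in low backfat, and the 5p share of miR-143 was 0.0141% ± 0.00670 in high and 0.0128% ± 0.00311 in low backfat. The share of miR-145 in the cluster was 0.767% ± 0.342 in high and 0.861% ± 0.154 in low backfat. The adjusted exact permutation p of each was 0.936. All 3 moved with 1 library, high replicate 6. Without it the difference in the 3p share of miR-145, high minus low, was 1.71 percentage points in place of -0.258, and that in the 5p share of miR-143 was -0.000658 points in place of 0.00128, so both changed sign and neither passed. For the share of miR-145 in the cluster this library had 1.61%, where the next highest of its class had 0.804%, and without it the share was 0.200 percentage points lower in high backfat (exact permutation p = 0.0133, adjusted p = 0.0400). These tests took no account of sex. High replicate 6 was a female, and the mean of this share was lower in castrated males (0.707%) than in females (0.921%). Within the runs of library codes the difference in the cluster share of miR-145, high minus low, was -0.361, -0.264 and -0.183 points in 3 runs and 0.0388 points in the run that holds high replicate 6.

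Castrated males and females were compared with class as a covariate. 0% of the 221 miRNAs were called by edgeR, none of the members among them (17 were under the threshold of 0.05 before adjustment, 2 of them members, and DESeq2 also called 0). miR-143-5p averaged 21.3 ± 6.55 CPM in castrated males and 28.7 ± 4.47 CPM in females (SD, n = 9 each), with a log2 fold change of -0.42 ± 0.17 (edgeR adjusted p = 0.495). miR-145-5p averaged 975 ± 299 CPM in castrated males and 1242 ± 264 CPM in females, with a log2 fold change of -0.35 ± 0.15 (edgeR adjusted p = 0.598). miR-145-3p had a log2 fold change of -0.33 ± 0.18 (adjusted p = 0.626) and miR-143-3p of -0.01 ± 0.13 (adjusted p = 0.987), so the 3 rarer members had lower means in castrated males without passing the correction. The share of miR-145 in the cluster was 0.707% ± 0.187 in castrated males and 0.921% ± 0.291 in females (exact permutation p = 0.0694, adjusted over 3 shares 0.104).

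The class contrast was then taken within each sex. In castrated males miR-145-5p had 850, 796, 856, 795 and 721 CPM in the 5 high pigs, against 1278, 1022, 1637 and 820 CPM in the 4 low pigs. The high castrated males lay close together, and 3 of the 4 low pigs were above all of them. The log2 fold change was -0.58 ± 0.23 (edgeR adjusted p = 0.149), in a contrast where 2.65% of 226 miRNAs were called (6, and 13 by DESeq2, none of them a member). In females miR-145-5p had 1387, 1021, 1680 and 938 CPM in the 4 high pigs, against 1061, 1226, 1587, 1257 and 1018 CPM in the 5 low pigs, and the log2 fold change was 0.04 ± 0.23 (edgeR adjusted p = 0.941). In females 0% of 226 were called, with 25 under 0.05 before adjustment and 0 by DESeq2. The difference of the 2 contrasts, castrated males minus females, was -0.62 ± 0.32 (edgeR adjusted p = 0.484). Here too 0% of 226 were called, with 25 under 0.05 before adjustment and 3 by DESeq2, none of them a member.

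miR-143-5p had 18.8, 23.3, 20.1, 22.5 and 13.1 CPM in high castrated males, against 30.7, 32.0, 15.8 and 15.8 CPM in low castrated males. The low castrated males fell into a high and a low pair, and the low pair belonged to the run AC485 to AC488. In females it had 34.95, 31.6, 34.5 and 27.0 CPM in the high pigs, against 28.2, 26.9, 22.7, 29.5 and 22.7 CPM in the low pigs. The class contrast was -0.26 ± 0.23 in castrated males (adjusted p = 0.503) and 0.31 ± 0.23 in females (adjusted p = 0.604), and their difference was -0.57 ± 0.32 (edgeR adjusted p = 0.537). Within the high class alone, both miR-143-5p and miR-145-5p had every castrated male below every female, a separation chosen for mention after its values were seen and shared by 4.52% of the 221 miRNAs in either direction.

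**Figure D4:**
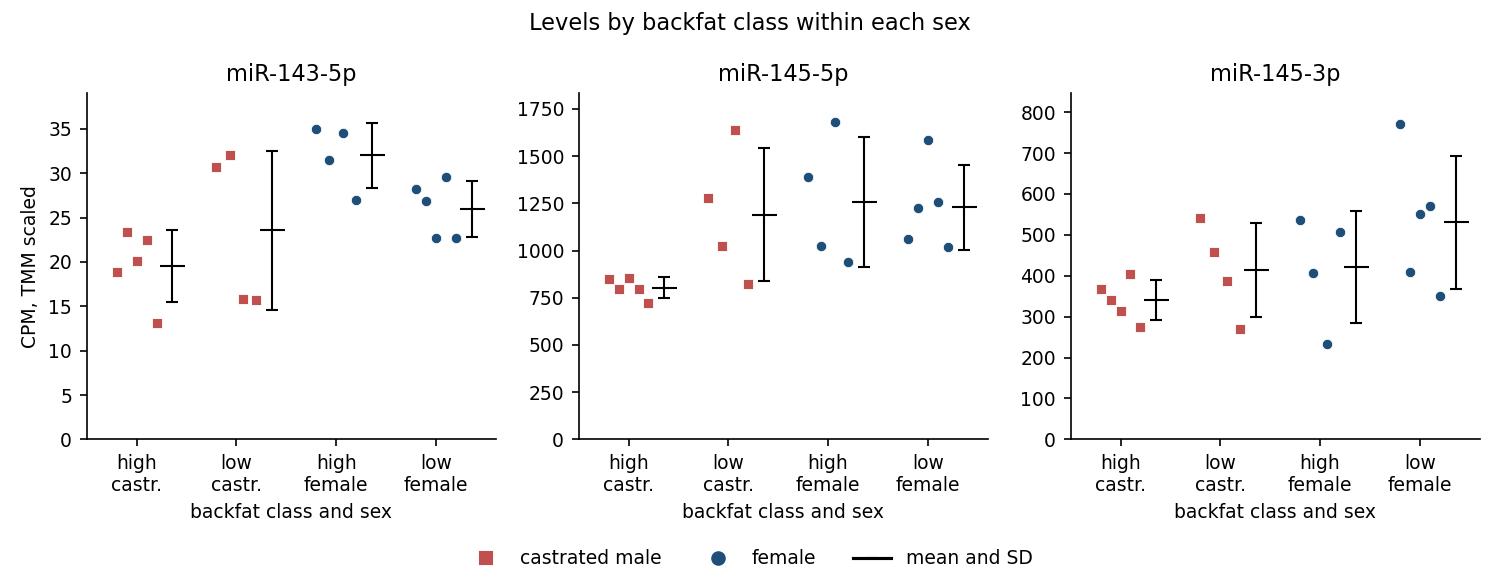
TMM-scaled CPM (vertical axes, from 0) of miR-143-5p, miR-145-5p and miR-145-3p in high and low castrated males (n = 5 and 4) and high and low females (n = 4 and 5), with the mean and SD beside each group. High castrated males lie between 721 and 856 CPM for miR-145-5p, while low castrated males reach 1637 CPM.

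The shares of the sequence forms were compared between classes in 32 exact permutation tests, 8 per member, without sex as a covariate. The number that passed at an adjusted p of 0.05 was 0, with 3 at an unadjusted p under 0.05. All 3 concerned the main arms. The annotated form of miR-143-3p ran over 24.5%, 29.0% and 33.9% (lowest, median, highest) in high backfat, against 17.1%, 26.5% and 29.5% in low backfat. The means were 29.1% ± 2.81 and 24.2% ± 4.62 in high and low backfat (exact permutation p = 0.0172, adjusted p = 0.184). The 4 libraries of the run AC485 to AC488, 3 of them low, held 4 of the 5 lowest values. Without this run the difference was 2.93 percentage points in place of 4.83 (exact permutation p = 0.0603, adjusted p = 0.386), and within single runs it was 5.16, -1.76, 7.82 and 0.959 points.

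The 3′ ends of miR-143-3p that do not match the hairpin showed the opposite order. Their share was 30.0%, 32.4% and 34.5% (lowest, median, highest) in high backfat, against 32.9%, 34.5% and 42.7% in low backfat. The means were 32.5% ± 1.42 in high and 35.5% ± 2.97 in low backfat (exact permutation p = 0.00329, adjusted p = 0.105). The difference, high minus low, was -5.78, -2.09, -1.23 and -1.99 percentage points within the 4 runs, and the highest value belonged to low replicate 7. Without the run AC485 to AC488 the difference was -1.49 points (adjusted p = 0.386), and without low replicate 1 it was -3.30 points (adjusted p = 0.0421).

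The annotated form of miR-145-5p ran over 3.84%, 4.30% and 4.84% in high backfat, against 3.28%, 3.79% and 4.31% in low backfat. The means were 4.35% ± 0.371 and 3.86% ± 0.368 in high and low backfat (exact permutation p = 0.0146, adjusted p = 0.184). Within the 4 runs the difference was 0.406, 0.131, 1.19 and -0.0756 points, so most of it lay in the run U134 to U139. The difference passed the threshold when forms with a mismatch were left out of the denominator (0.583 points, adjusted p = 0.0487). The length variants and the shorter 3′ ends of the same miRNA passed with it, but without mismatch forms the length variants are the complement of the annotated form and the shorter ends a part of them, so these are not separate results. For miR-143-5p and miR-145-3p no share had an unadjusted exact permutation p under 0.05.

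**Figure D5:**
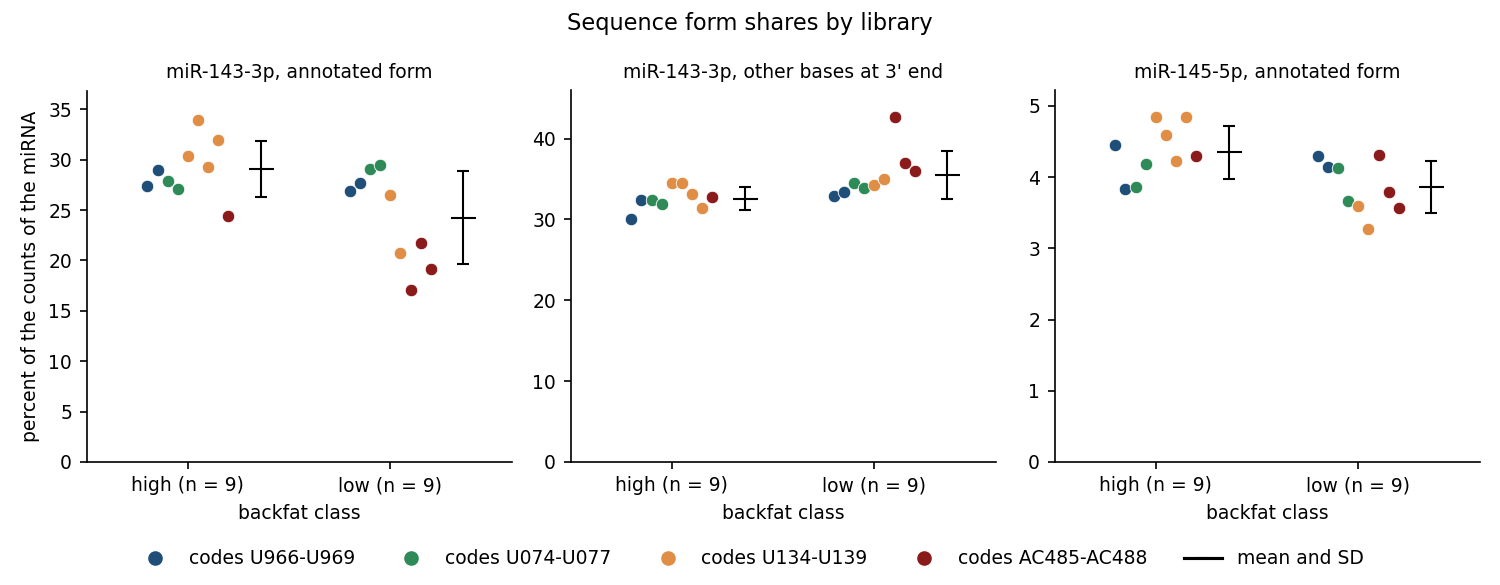
Percent of a miRNA's counts (vertical axes, from 0) held by the annotated form of miR-143-3p, its 3′ ends not matching the hairpin, and the annotated form of miR-145-5p, for 9 high and 9 low libraries coloured by run of library codes, with the mean and SD beside each class. The run AC485 to AC488 lies at 17.1% to 24.5% in the left panel, and the highest value in the middle panel, 42.7%, is from the same run.

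Single forms were tested across the whole table. edgeR called 0% of 7859 forms, and 0 of the 442 member forms that passed the count filter (354 of 515, 8 of 17, 45 of 112 and 35 of 91 for miR-143-3p, miR-143-5p, miR-145-5p and miR-145-3p). An unadjusted p under 0.05 was reached by 12 member forms, 9 of miR-143-3p and 3 of miR-145-5p, against 6.54% of all forms. DESeq2 called 191 forms, 1 of them a member. The main forms of miR-143-3p followed the shares: the annotated form averaged 55730 ± 10643 CPM in high and 46812 ± 11407 CPM in low backfat (log2 fold change 0.26 ± 0.14, edgeR adjusted p = 0.902), and the form with an added T averaged 44982 ± 9392 CPM in high and 50426 ± 7231 CPM in low backfat (-0.16 ± 0.12, edgeR adjusted p = 0.999).

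The 3 lowest p of miR-143-3p were forms with a changed seed base. They are shown with the change in capitals, positions counted from 1 at the annotated 5′ end.
G7C: tgagatCaagcactgtagctc
G7T: tgagatTaagcactgtagctc
G7C, 1 base shorter: tgagatCaagcactgtagct
The full-length G7C form had 82.4 CPM in high replicate 6 and 95.0 CPM in high replicate 8, against 1.83 to 6.39 CPM in the other high libraries and 1.87 to 4.42 CPM in the low libraries. Its log2 fold change of 2.92 ± 0.84 (edgeR adjusted p = 0.306) thus came from 2 libraries. The G7T form was also highest in these 2, at 22.0 and 23.4 CPM, and was the member form that DESeq2 called (log2 fold change 1.37 ± 0.39, adjusted p = 0.0228). The lowest p of miR-145-5p forms belonged to forms at or under 3.23 CPM on average in each class, and no form of miR-143-5p or miR-145-3p had an unadjusted p under 0.05.

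Under TMM scaling the members did not rise and fall together in a simple way over the 18 libraries. Pearson's r and Spearman's rho were taken on log2 CPM for the 6 pairs, with permutation p adjusted over the 6. The highest r was that of miR-143-3p with miR-145-3p (r = 0.494, permutation p = 0.0365, adjusted p = 0.119, rho = 0.395, permutation p = 0.107), and it was 0.294 without the 2 libraries farthest from the median of miR-143-3p, so it rests in part on them. In the 1 run of library codes with 6 libraries it was 0.918 (exact permutation p = 0.00694, adjusted p = 0.0417), while its rho of 0.943 did not pass (exact permutation p = 0.0167, adjusted p = 0.100). The 2 arms of the miR-145 hairpin had r = 0.284 (permutation p = 0.253, adjusted p = 0.379, rho = 0.430, permutation p = 0.0756), and 0.708 without high replicate 6 and low replicate 7. The 2 main arms, miR-143-3p and miR-145-5p, had r = -0.162 (permutation p = 0.527, adjusted p = 0.633, rho = 0.00310, permutation p = 0.994), and -0.153 after centring within runs. miR-143-5p had r = 0.451 with miR-145-5p (permutation p = 0.0597, adjusted p = 0.119, rho = 0.564, permutation p = 0.0159) and 0.471 with miR-145-3p (permutation p = 0.0497, adjusted p = 0.119, rho = 0.484, permutation p = 0.0442). These 2 relations had r = 0.221 and 0.239 without the 2 libraries farthest from the median of miR-143-5p. Without centring no pair passed the correction with all 18 libraries under TMM scaling. Without TMM scaling 3 pairs passed by Pearson's r. They were miR-143-3p with miR-145-3p (r = 0.536, adjusted permutation p = 0.0427), miR-143-5p with miR-145-5p (r = 0.656, adjusted permutation p = 0.0190) and miR-143-5p with miR-145-3p (r = 0.606, adjusted permutation p = 0.0238). The 2 main arms had r = -0.0557 there. After TMM scaling and centring within runs no pair passed by Pearson's r, but miR-143-5p with miR-145-5p passed by Spearman's rho (r = 0.552, adjusted permutation p = 0.0558, rho = 0.614, adjusted permutation p = 0.0470). Leaving out high replicate 6 let, by Pearson's r, miR-145-5p with miR-145-3p (r = 0.588, adjusted permutation p = 0.0404) and miR-143-5p with miR-145-3p (r = 0.723, adjusted permutation p = 0.00654) pass. Leaving out high replicate 9 did so for miR-143-3p with miR-145-3p (r = 0.650, adjusted permutation p = 0.0293), and leaving out low replicate 7 for miR-143-5p with miR-145-5p (r = 0.697, adjusted permutation p = 0.0119).

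The levels most like each main arm, by Pearson's r of log2 CPM over 18 libraries and 217 miRNAs outside the cluster, are given as a description. For miR-143-3p they were miR-27b-3p (r = 0.822), miR-7 (0.737), miR-20a (0.731), miR-152 (0.705) and miR-126-3p (0.690). miR-27b-3p restrains fat cell differentiation in mouse cells, and miR-126-3p is made by endothelial cells. For miR-145-5p they were miR-425-3p (0.769), miR-129a (0.707), miR-133b (0.696), miR-133a-3p (0.663) and miR-1285 (0.636). miR-133a and miR-133b are abundant in striated muscle, and miR-129a, miR-133b and miR-1285 averaged 2.27, 1.73 and 1.44 CPM. Relations share their libraries and scaling, so r between miRNAs is not independent evidence.

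Markers of other cell types were therefore set beside the cluster. The 4 tested skeletal muscle markers summed to 48.0 to 129 CPM in high and 78.4 to 210 CPM in low libraries, and all 4 had a fold change below 0, with 0 passing the test. Their median log2 fold change was -1.24, against -0.03 over all 221 miRNAs and -0.15 over the cluster. Within castrated males miR-133a-3p and miR-133b passed the test, with log2 fold changes of -2.13 (edgeR adjusted p = 0.00667) and -2.91 (edgeR adjusted p = 0.00667), in the contrast where miR-145-5p had -0.58. Without the run AC485 to AC488 neither passed, and the number of miRNAs called in castrated males was 0. That run holds the castrated males high replicate 9, low replicate 7 and low replicate 9, so leaving it out also left fewer pigs. With the run of codes as a term instead, 10 were called. The part of muscle in the miR-145 values was not tested. The endothelial miR-126 arms summed to 11300 to 41511 CPM in high and 24788 to 37694 CPM in low libraries, with 0 of 2 passing. White blood cell markers had 0 of 3 passing and red blood cell markers 0 of 3, with medians of 0.03 and -0.15. Neither miR-205, an epithelial marker, nor miR-122, a liver marker, passed, with ranges of 1.23 to 15.9 and 0 to 8.65 CPM in high libraries, against 1.95 to 49.2 and 0 to 42.8 CPM in low libraries.

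Other miRNAs tied to the same tissue roles were read from lists. The lists name miRNAs without an arm. A tested arm was counted, whatever its own role, if its name without the arm suffix was on a list. Names with a further number were left out, among them miR-24-1-5p, miR-24-2-5p and miR-30c-1-3p. Their log2 fold changes were 0.32, -0.24 and 0.24, and none of these passed the test. The list for smooth muscle and pericytes includes miR-1 (log2 fold change -1.56) and miR-133a-3p (-1.10), which are also on the skeletal muscle list. Of its 12 arms, 8 had a fold change below 0 and 4 above 0, with a median log2 fold change of -0.23. By the test 2 rose in high backfat and 0 fell. Those that rose were miR-222, which in rats favours smooth muscle proliferation, at 297 ± 90.3 CPM in high and 161 ± 57.2 CPM in low backfat (log2 fold change 0.89 ± 0.22, edgeR adjusted p = 0.0486), and miR-221-5p at 12.3 ± 6.10 CPM in high and 5.81 ± 1.38 CPM in low backfat (0.99 ± 0.27, edgeR adjusted p = 0.0486). The far more abundant partner arm miR-221-3p did not pass. It had 417 ± 142 CPM in high and 331 ± 78.1 CPM in low backfat (0.27 ± 0.18, edgeR adjusted p = 0.363). By name, 19 tested arms fell under the list for promotion of fat cell differentiation, drawn up for human or mouse cells. Among them 0 rose and 2 fell, both arms of miR-199a, with a median of -0.17. A listed name does not settle the role of either arm. miR-199a-3p had 5678 ± 1090 CPM in high and 8040 ± 1290 CPM in low backfat (log2 fold change -0.50 ± 0.13, edgeR adjusted p = 0.0486). Of 16 arms of miRNAs listed as restraining such differentiation, the same miR-221-5p and miR-222 rose and let-7c fell (log2 fold change -0.28 ± 0.07, edgeR adjusted p = 0.0486), with a median of 0.00. The calls behind these counts moved with single libraries: for 14 of the 18 libraries, leaving that library out reduced the 8 calls to between 0 and 5. The calls were 0 with age as a term, with limma and without the run AC485 to AC488. These lists overlap, and the count of members called in the cluster, 0 of 4, stood beside 3.62% of all miRNAs.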

How the data were processed

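Total RNA of frozen backfat went through the TruSeq Small RNA kit and was read on an Illumina GAII as single reads of 100 bases, per the labels' protocols. The authors deposited raw counts of read sequences per mature miRNA and hairpin, and a table of normalised signal (counts divided by 1 factor per library). The tools were Bowtie 0.12.7, HTSeq and DESeq2 1.4.5 and the build Sscrofa10.2, per the submitters' processing notes, where roles are missing. Trimming and filters were not given in the sources used here. Of the value columns, 2 matched no sample and were not used. Samples were grouped by the labels' backfat class and sex. Each library named its own animal, so p-values measure the spread between animals, and read depth sets counting error only.

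Where 1 sequence had several listings under a mature miRNA, its highest count was taken. R 4.3.3 with edgeR 4.0.16 (quasi-likelihood test, minimum count 10, TMM, Benjamini-Hochberg) fitted the raw counts, with DESeq2 1.42.0 and limma 3.58.1 (log2 of the deposited normalised signal plus 1) as alternatives. SE was derived from the F statistic. Permutation tests ran in Python 3.11.15 with NumPy 2.4.6, SciPy 1.17.1 and pandas 2.3.3, figures in Matplotlib 3.10.9, and the fits were tested on simulated data. The hairpin was rebuilt from reads without a mismatch.

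Members and lists were chosen with earlier results of these data known. The rule for names took all members, forms with at least 1% of a member or its 3 lowest p, and the 5 miRNAs most like each main arm. Leaving out the run AC485 to AC488 was chosen after seeing the data.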

Additional observations from a re-analysis of the deposited data

Results flagged for a closer look

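Of 24 groups of 9 values examined for a single distant library, 4 held one, where chance gives about 1 in 20 for independent groups. These groups were not independent, since 3 of the 4 were shares of 1 library built from the same counts. The count of 4 can therefore not be set against that rate. In high replicate 6, 3 shares stood far from the rest of the high class: the 5p share of miR-143 was 0.0296% (nearest other value 0.0168%), the 3p share of miR-145 was 12.2% (nearest 26.8%) and the share of miR-145 in the cluster was 1.61% (nearest 0.804%). In low replicate 7, the share of miR-143-3p ends not matching the hairpin was 42.7% (nearest 37.0%).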

How the results depend on the processing

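No paired analysis was possible because replicate numbers were given in accession order only and every library came from another pig. Outside the leave-one-out runs, the cause of a change between settings was not tested. The count of miRNAs called between classes, 8, was 22 with DESeq2's Wald test, 1 with DESeq2 size factors, 1 without a low-count filter, 0 with age as a term, 0 with limma and 0 without the run AC485 to AC488. Within castrated males the count, 6, was 13 with DESeq2, 10 without a filter, 10 with the run of codes as a term and 0 without the run AC485 to AC488. The difference between the sexes gave 3 calls with DESeq2. Forms called, 0, were 191 with DESeq2, 21 at a mean of at least 10 CPM and 1 with limma. Of form shares 3 passed without mismatch forms, all of miR-145-5p and not independent of each other, and of relations 3 passed without TMM scaling. Leaving out each library gave 0 to 10 miRNAs between classes, 2 to 13 in castrated males (3 without high replicate 1, 13 without low replicate 2, 2 without low replicate 9), 0 to 3 for the difference (1 without high replicate 3, 3 without high replicate 7, 1 without low replicate 5), 0 in females and between sexes, 0 to 2 forms (2 without high replicate 6), 0 to 1 arm shares, 0 to 1 form shares, 11 of 12 member comparisons and 0 to 2 relations. Without mismatch forms all 9 member comparisons that could be made passed. The moved start of the miR-143 arms was among them, but no such form of miR-143-5p remained, so its outcome was fixed. The shorter 3′ ends of the miR-145 arms were also among them, and their outcome was largely fixed by the moved starts of miR-145-3p.

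No member passed in any of these fits of summed counts, but values near 0 changed sign. The class log2 fold change of miR-143-3p, -0.03, became 0.0107 with the run of codes, 0.00215 with age, 0.0351 with limma, 0.0373 with every listed row summed, 0.290 with exact matches alone and 0.0436 without mismatch forms. That of miR-143-5p, 0.02, became -0.00442 at 10 CPM, -0.0838 with the run of codes, -0.0959 without the run AC485 to AC488 and -0.00443 without mismatch forms. The sex contrast of miR-143-3p became 0.0145 with age and 0.0293 without that run, and its contrast in castrated males -0.00181 at 10 CPM and -0.0506 without that run. In females miR-145-5p became -0.0392 with age and -0.0270 without that run. The difference of contrasts of miR-145-3p became -0.0234, -0.0979 and -0.0336 at 10 CPM, with age and without that run. The form of miR-143-5p 2 bases longer became -0.00295 with the run of codes. With exact matches alone the differences in the 5p share of miR-143 and the 3p share of miR-145 became -0.000825 and 0.117 points, and without TMM scaling r of the miR-143 arms became 0.278.

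Leaving out each library, class fold changes ran from -0.0800 to 0.0614 for miR-143-3p and -0.0280 to 0.124 for miR-143-5p, the sex contrast of miR-143-3p from -0.0814 to 0.0630, its contrasts in castrated males and females from -0.00406 to 0.132 and -0.265 to 0.0531, that of miR-145-5p in females from -0.127 to 0.175, and the difference for miR-145-3p from -0.176 to 0.185. The 5p share of miR-143 ran from -0.000658 to 0.00234 points, the 3p share of miR-145 from -1.39 to 1.71, the moved starts of the miR-143 arms from -0.00171 to 0.155, r of the miR-143 arms from -0.243 to 0.137 and r of the main arms from -0.262 to 0.192. The counts of miR-143-5p, 124 to 1155 per library, limit what can be said of its forms.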

Other observations

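Changes of a base inside a member varied widely between libraries of 1 class. In miR-143-3p, A3T made up 2.02% ± 1.16 of counts (SD, n = 18), from 0.492% in high replicate 8 to 4.23% in high replicate 1. Changes of the third base as a whole held 4.25% of miR-143-3p and 3.85% of all other miRNAs in high replicate 1, and 0.505% and 0.689% in high replicate 8. In miR-145-5p the third base was changed as C3T in 2.44% ± 1.44 of counts, with 4.86% in high replicate 1 and 0.652% in high replicate 6.

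In miR-145-3p the change A12C, counted from the annotated 5′ end, held 7.44%, 6.05%, 6.81% and 6.88% of counts in the 4 libraries of the run AC485 to AC488, against at most 2.92% in the other 14 libraries and it was listed at 0 in 10 of them.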
